A study of Homo sapiens with 12 samples.

Results

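The DNA repair and checkpoint genes examined here are 39 genes of homologous recombination, the Fanconi anaemia pathway, mismatch repair, DNA end joining and damage signalling. They were chosen by name, with earlier results of these data known, so their shares beside all genes are descriptive only. Each was represented by its probe set with the highest mean over all arrays among those that carry a single gene symbol. This gave values for 36 of the 39 members, among 11963 genes measured in the same way. BRCA2, FANCA and PMS2 had no such probe set and were not analysed here. The study measured RNA on Affymetrix 3′ expression arrays in MDA-MB-231, a triple-negative line long kept in culture from a human breast cancer. Its 12 arrays form 4 groups of 3, described as biological replicates. One group received a lentiviral short hairpin RNA (shRNA) against the histone deacetylase HDAC5, and one received an shRNA against the histone demethylase LSD1, the product of KDM1A. Each has a scramble shRNA group of its own, and all 12 samples carry a lentiviral shRNA. The scramble group without the LSD1 tag was taken as the control of HDAC5 shRNA, because the other one carries that tag. The labels give no time after transduction, no hairpin sequence and nothing on selection or cloning of the cells. They do not say whether replicates came from separate cultures, so the p-values measure only the spread between these samples, which may be technical.

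Cells repair a broken chromosome by end joining or by homologous recombination. End joining binds the ends with the Ku heterodimer and seals them with a DNA ligase, whereas recombination trims the ends and copies the missing sequence from the sister chromatid, which exists only once the DNA has been replicated. Many genes of recombination, of the Fanconi pathway that removes crosslinks, and of the ATR and CHEK1 checkpoint are transcribed most in late G1 and S phase under E2F transcription factors. Genes of end joining and the ATM kinase are known for a steadier expression through the cell cycle. Mismatch repair removes errors left by the replicative polymerases.

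Each targeted transcript was lower with its own shRNA. HDAC5 had log2 values of 7.56, 7.42 and 7.22 on the scramble arrays and 6.17, 6.19 and 6.50 with HDAC5 shRNA, a change of -1.11 (SE 0.11). KDM1A had 9.61, 9.76 and 9.78 on the scramble arrays and 6.48, 6.81 and 6.60 with LSD1 shRNA, a change of -3.08 (SE 0.11). The groups did not overlap for either target. All 8 mesenchymal markers of this line that were checked, VIM and CD44 among them, lay above the lower quartile of every array. Of 9 luminal and hormone receptor markers that were listed as low for this check, only PGR lay below it on every array, and of 7 epithelial markers only GRHL2. Group means of KRT8, KRT18, XBP1, GATA3, ERBB2, CLDN4, CLDN7 and EPCAM all lay above the lower quartile, and the mean of CDH1 was 4.18 with scramble and 6.40 with LSD1 shRNA. Of 7 blood cell markers PTPRC, MS4A1 and LYZ lay below it throughout, and of 9 endothelial and fibroblast markers CDH5, VWF and LUM did. Pairwise correlations within a group were 0.9983 to 0.999 in the HDAC5 experiment, and lower, from 0.9907, with LSD1 shRNA. Values are log2 intensities as deposited, and array medians differed between the experiments (6.59 to 6.65 against 7.05 to 7.15). Levels are therefore compared only within an experiment, unless given relative to the median gene of the array.

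With HDAC5 shRNA, most of the repair and checkpoint genes were higher than with scramble. A gene was called changed at a limma adjusted p under 0.05 over all 11963 genes. By that rule 23 of the 36 members rose, 3 fell and 10 did not pass. Of all genes tested 44.5% were called, 21.3% up and 23.2% down, and 72.2% of the members were called. The median log2 change was 0.33 over the members and -0.02 over all genes. A rise of at least 2-fold was called for 10 members, and for 1.66% of all genes. In 25 members every HDAC5 shRNA array lay above every scramble array, and in 3 every one lay below, against 24.1% and 26.6% of all genes. The members that rose most were those of strand trimming and exchange, the FANCI and FANCG genes and CHEK1. Those of end joining changed by at most 0.33, and ATM, CHEK2 and RAD50 fell. In bulk RNA, fewer or more cells in S phase and less or more RNA per cell cannot be told apart.

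**Figure D1:**
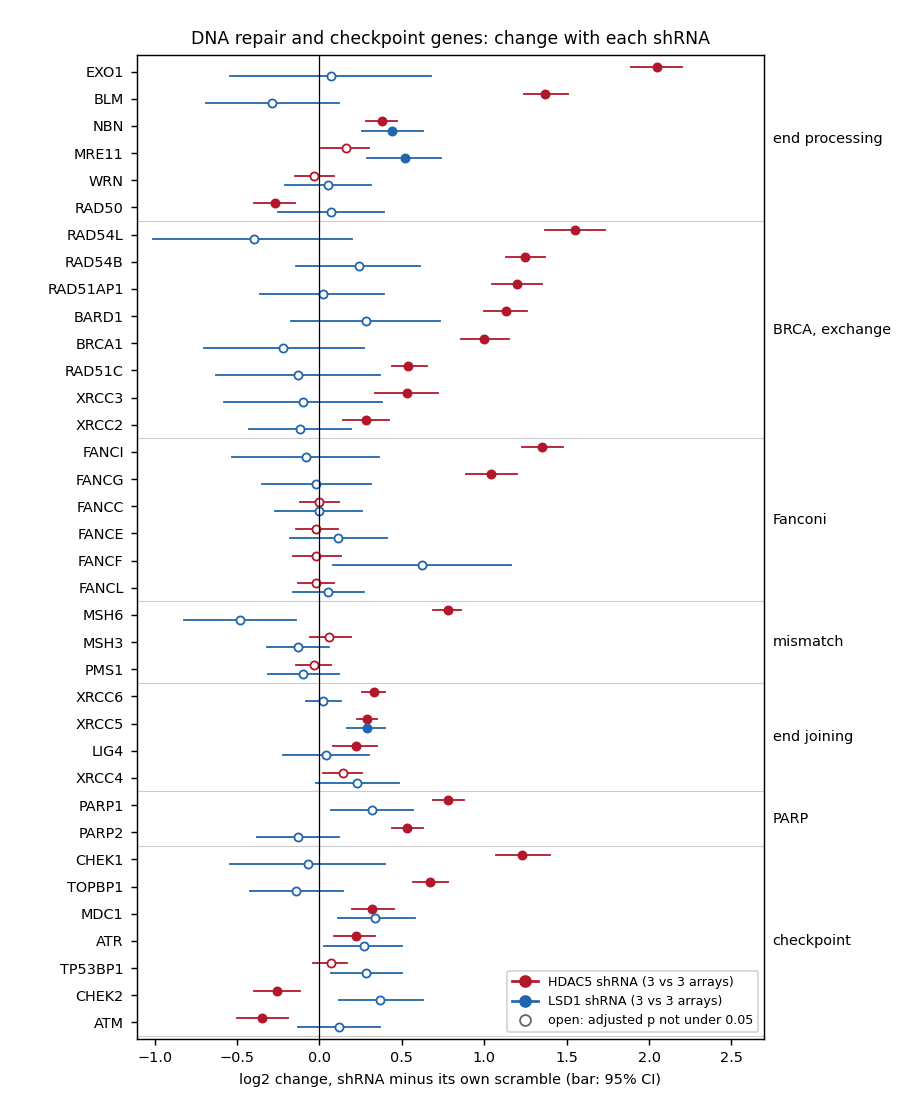
Log2 change of each of the 36 measured members (horizontal axis) with HDAC5 shRNA (red) and LSD1 shRNA (blue) against the scramble arrays of the same experiment, by pathway, with 95% intervals from limma. Filled points passed an adjusted p under 0.05; the red points reach 2.05 for EXO1, while the blue intervals are wider and only 3 blue points are filled.

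Among the genes that sense and trim DNA ends, EXO1 and BLM rose, while the 3 subunits of the MRN complex differed: NBN rose, RAD50 fell and MRE11 did not pass. EXO1, the exonuclease that resects broken ends, had log2 values of 6.90, 6.92 and 7.01 on the scramble arrays and 8.95, 8.91 and 9.13 with HDAC5 shRNA (change 2.05, SE 0.07, adjusted p = 1.91e-08), a 4.14-fold rise. BLM, the helicase lost in Bloom syndrome, which acts in resection and in dissolving joint molecules, had 6.68, 6.67 and 6.71 on the scramble arrays and 8.06, 7.98 and 8.14 with HDAC5 shRNA (change 1.37, SE 0.06, adjusted p = 8.46e-08). Neither gene's groups overlapped. In the MRN complex, which binds ends first, NBN rose from 10.45, 10.36 and 10.45 to 10.77, 10.86 and 10.75 (change 0.38, SE 0.04, adjusted p = 5.72e-05). The gene of its ATPase subunit, RAD50, fell (8.12, 8.20 and 8.08 to 7.87, 7.81 and 7.89; change -0.27, SE 0.06, adjusted p = 0.00247). The nuclease subunit gene MRE11 was at 0.16 (SE 0.06) and did not pass (adjusted p = 0.0744), although its shRNA arrays lay above its scramble arrays. WRN, the helicase and exonuclease gene of Werner syndrome, was at -0.03 (95% interval -0.15 to 0.09), with overlapping groups.

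All 8 measured genes of the BRCA and strand exchange factors rose, and in each of them the 3 shRNA arrays lay above the 3 scramble arrays. Over all genes 21.3% were called up, and in 24.1% every shRNA array lay above every scramble array. The median change of the 8 was 1.07. The translocase gene RAD54L, which acts as the broken end invades the intact duplex, had 6.29, 6.35 and 6.57 on the scramble arrays and 7.98, 7.89 and 8.0 with HDAC5 shRNA (change 1.55, SE 0.08, adjusted p = 2.14e-07). Its paralogue RAD54B went from 7.69, 7.71 and 7.77 to 9.02, 8.96 and 8.93 (change 1.25, SE 0.05, adjusted p = 6.21e-08). RAD51AP1, whose product stimulates strand pairing, went from 9.33, 9.23 and 9.46 to 10.56, 10.62 and 10.44 (change 1.20, SE 0.07, adjusted p = 3.38e-07). These 3 were each raised by more than 2-fold.

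BRCA1 and BARD1 encode the partners of a heterodimeric ubiquitin ligase that favours resection and loads recombination factors. BRCA1 had 7.34, 7.15 and 7.29 on the scramble arrays and 8.20, 8.29 and 8.29 with HDAC5 shRNA (change 1.00, SE 0.06, adjusted p = 9.5e-07). BARD1 had 8.31, 8.27 and 8.26 with scramble against 9.48, 9.29 and 9.46 (change 1.13, SE 0.06, adjusted p = 2.5e-07). The partners thus rose by 2-fold and 2.19-fold, with no overlap between groups. RAD51C, XRCC3 and XRCC2, which act in strand exchange, rose less. RAD51C went from 8.82, 8.86 and 8.86 to 9.41, 9.33 and 9.44 (change 0.54, SE 0.05, adjusted p = 7.64e-06). XRCC3 went from 4.88, 5.02 and 4.99 to 5.65, 5.47 and 5.37 (change 0.53, SE 0.08, adjusted p = 0.000468). XRCC2 rose by 0.28 (SE 0.06). XRCC3 was dim, not far above the lower quartile of its scramble arrays (4.63 to 4.64), and RMA compresses log ratios at such signal.

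Of the 6 Fanconi genes, FANCI and FANCG rose by more than 2-fold and the other 4 did not pass, where 44.5% of all genes were called. FANCI, which forms the monoubiquitinated clamp of the pathway with FANCD2, had 8.90, 8.88 and 9.04 on the scramble arrays and 10.35, 10.24 and 10.29 with HDAC5 shRNA (change 1.35, SE 0.06, adjusted p = 5.81e-08). FANCG, a subunit of the core ubiquitin ligase complex, went from 8.03, 8.14 and 8.02 to 9.06, 9.01 and 9.25 (change 1.04, SE 0.07, adjusted p = 1.18e-06). The other measured subunits of that complex had intervals around 0. FANCC was at 0.00 (95% interval -0.12 to 0.12), FANCE at -0.02 (95% interval -0.14 to 0.11), FANCF at -0.02 (95% interval -0.16 to 0.13) and FANCL, the ligase subunit, at -0.02 (95% interval -0.13 to 0.09). Each of these intervals leaves out a rise as large as that of FANCG.

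In mismatch repair, MSH6, whose product takes part in recognising single mismatches, rose from 10.22, 10.16 and 10.20 to 10.99, 10.95 and 10.98 (change 0.78, SE 0.04, adjusted p = 1.13e-07). MSH3, which takes part in recognising larger loops, was at 0.06 (95% interval -0.06 to 0.19), and PMS1 was at -0.03 (95% interval -0.14 to 0.07). The arrays of the groups overlapped for MSH3 and PMS1, and were apart for MSH6.

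The end joining genes changed by small amounts that the close replicates still resolved. XRCC6, the Ku70 gene, went from 12.27, 12.32 and 12.30 to 12.60, 12.61 and 12.67 (change 0.33, SE 0.03, adjusted p = 1.16e-05). XRCC5, the Ku80 gene, went from 12.07, 12.11 and 12.07 to 12.38, 12.37 and 12.38 (change 0.29, SE 0.03, adjusted p = 1.5e-05). The subunits of Ku thus rose by 1.26-fold and 1.22-fold. LIG4, the ligase of the pathway, rose by 0.22 (SE 0.06). Its partner XRCC4 was at 0.14 (SE 0.05) and did not pass (adjusted p = 0.0609). That result for XRCC4 held in 11 of 13 alternatives. XRCC4 passed with quantile normalization (adjusted p = 0.0205) and without HDAC5 shRNA array 1 (0.0408). A further probe set of XRCC4 rose by 0.21 (adjusted p = 0.0241 over all probe sets), and those at 0.15 and 0.07 did not pass. The LIG4 call was lost without scramble array 1 (adjusted p = 0.0595) or HDAC5 shRNA array 3 (0.0547). The poly(ADP-ribose) polymerases, which mark strand breaks, both rose. PARP1 went from 10.11, 10.02 and 10.01 to 10.78, 10.86 and 10.86 (change 0.78, SE 0.04, adjusted p = 3.86e-07). PARP2 went from 10.07, 10.12 and 10.03 to 10.65, 10.55 and 10.62 (change 0.53, SE 0.04, adjusted p = 4.39e-06).

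Of the 7 checkpoint genes 4 rose and 2 fell, against 21.3% and 23.2% of all genes. The kinase genes differed in direction. On the arm that answers to single-stranded DNA at stalled forks, the effector kinase gene CHEK1 had 7.38, 7.47 and 7.62 on the scramble arrays and 8.67, 8.81 and 8.68 with HDAC5 shRNA (change 1.23, SE 0.07, adjusted p = 4.82e-07). TOPBP1, the activator of ATR, rose from 9.48, 9.46 and 9.60 to 10.21, 10.20 and 10.15 (change 0.67, SE 0.05, adjusted p = 1.81e-06). ATR itself went from 9.95, 10.08 and 10.15 to 10.26, 10.34 and 10.23 (change 0.22, SE 0.06, adjusted p = 0.00909). On the arm that answers to double-strand breaks, ATM fell from 8.44, 8.60 and 8.67 to 8.26, 8.15 and 8.25 (change -0.35, SE 0.07, adjusted p = 0.00193). Its effector kinase gene CHEK2 fell from 8.20, 8.22 and 8.04 to 7.85, 7.89 and 7.95 (change -0.26, SE 0.06, adjusted p = 0.00744). In neither gene did the groups overlap. The shRNA arrays lay below in both. Of the chromatin mediators that gather at breaks, MDC1 rose (0.32, SE 0.06) and TP53BP1 was at 0.07 (95% interval -0.04 to 0.17). The further probe set of TP53BP1 fell, at -0.42, so the direction for that gene depends on the probe set. With the spread estimated over all 12 arrays, the smaller calls of RAD50, XRCC2, LIG4, ATR and CHEK2 were lost (adjusted p = 0.0681, 0.0619, 0.0945, 0.0668 and 0.0514).

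**Figure D2:**
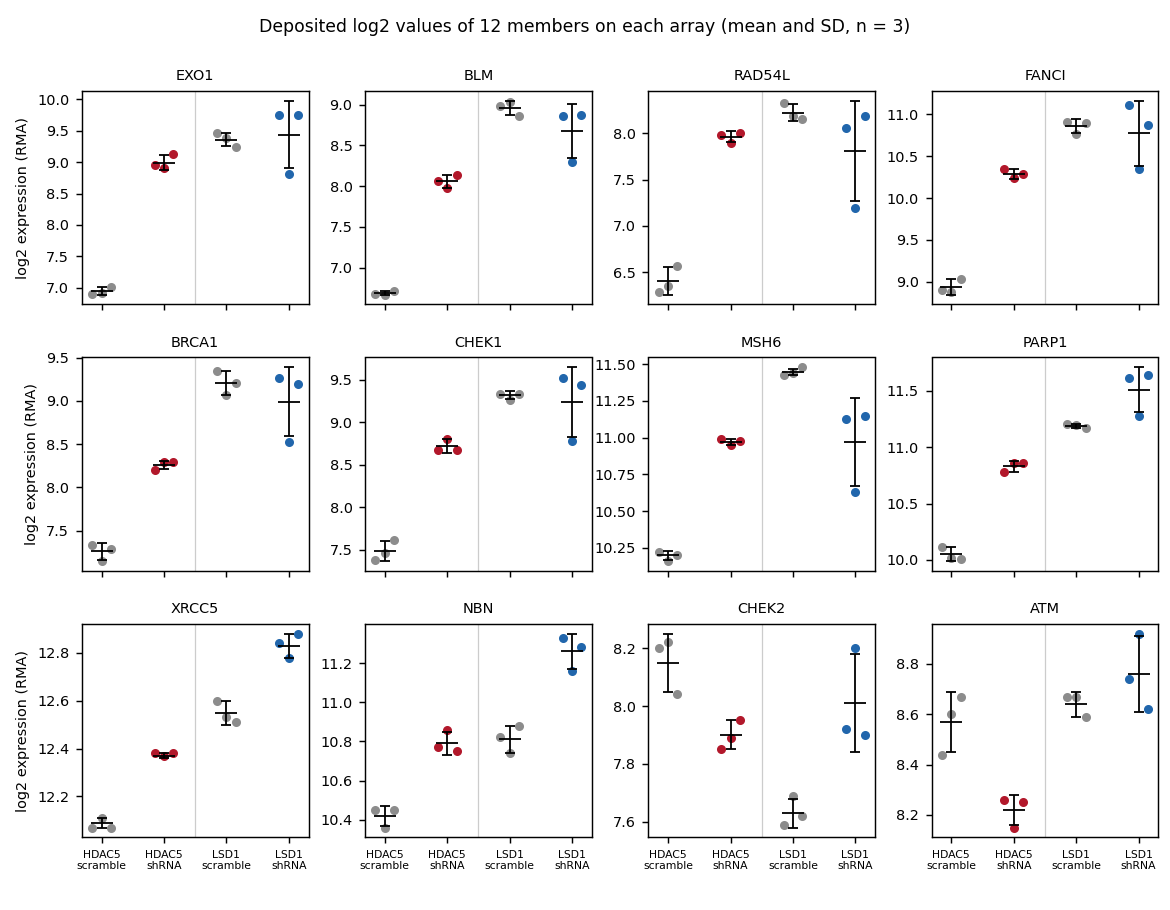
Deposited log2 values of 12 members on every array, in 4 groups of 3, with the mean (bar) and SD; each panel has its own vertical scale and the line separates the experiments. EXO1 to NBN are higher on all 3 HDAC5 shRNA arrays than on their scramble arrays, ATM and CHEK2 are lower, and from EXO1 to MSH6 array 2 of the LSD1 shRNA group lies below its other arrays.

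Further probe sets bear on how far a value belongs to the gene and not to 1 probe set. Of the 36 members 17 had more than 1, which gave 24 further probe sets. Of 18 that belong to called members, 16 were called in the same direction, none in the other, and 2 did not pass. Those 2 were dim probe sets of MSH6 (-0.04) and XRCC6 (0.17). For CHEK1 the further probe set rose more (1.61), and for ATM both further ones fell (-0.41 and -0.36). All 3 further ones of NBN rose (0.56, 0.57 and 0.64). BRCA1 (0.63) and RAD51C (0.29) rose less on theirs.

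Other genes of these pathways, and of excision repair, translesion synthesis and direct reversal, were taken from a list of 123, of which 87 were measured. With HDAC5 shRNA 50 rose, 15 fell and 22 did not pass, with a median of 0.24. Among all genes 21.3% rose and 23.2% fell. The list was chosen with earlier results of these data known, and counts were not tested between pathways. In recombination 8 of 12 rose and none fell, led by the nuclease gene DNA2 (1.27, SE 0.11), RMI1, a partner of BLM (1.22, SE 0.05), and RPA1, of the single-strand binding protein (0.92, SE 0.03). In the Fanconi pathway 5 of 7 rose, led by the helicase gene BRIP1 (1.87, SE 0.10), the deubiquitinase gene USP1 (0.89, SE 0.03) and FAAP24 (0.78, SE 0.07). WDR48, the partner of USP1, fell (-0.35, SE 0.04). Among checkpoint genes 15 of 17 rose, with the phosphatase gene CDC25A (2.00, SE 0.07), TIMELESS, of the fork protection complex (1.38, SE 0.06), and the histone gene H2AX (1.36, SE 0.05) in front. RAD17, the clamp loader gene, fell (-0.36, SE 0.05).

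The excision repair pathways remove damaged bases, and genes of both directions were called in them. Over all genes 21.3% were called up and 23.2% down. In base excision repair 9 of 17 rose and 4 fell. The risers included FEN1 (1.61, SE 0.04) and LIG1 (1.52, SE 0.07), which also process Okazaki fragments, and the glycosylase gene NEIL3 (1.24, SE 0.06). The fallers were led by OGG1, which removes oxidised guanine (-0.97, SE 0.08), MPG (-0.50, SE 0.06) and the polymerase gene POLB (-0.38, SE 0.05). In nucleotide excision repair 6 of 17 rose and 5 fell, with a median of -0.04. Its risers included CETN2 (0.58, SE 0.05), DDB2 (0.48, SE 0.07) and ERCC3 (0.41, SE 0.05), and its fallers the incision and helicase genes ERCC1 (-0.52, SE 0.06) and ERCC2 (-0.45, SE 0.07) and the damage-binding gene XPA (-0.43, SE 0.07). In end joining 5 of 7 rose, with the polymerase gene POLQ (0.87, SE 0.13), TDP1 (0.52, SE 0.05) and POLM (0.19, SE 0.06), while POLL fell (-0.43, SE 0.09). Of 3 further mismatch genes MLH3 fell (-0.56, SE 0.07). Translesion and direct reversal genes counted 2 up, POLH (0.46, SE 0.08) and ALKBH1 (0.24, SE 0.05), and 2 down of 7, POLI (-0.85, SE 0.05) and HLTF (-0.44, SE 0.04).

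Cell cycle genes moved with the members. All 30 measured genes of an S phase list rose with HDAC5 shRNA, with a median of 1.47 and a range of 0.67 to 3.44. Of 28 G2 and mitosis genes 27 rose, with a median of 0.85. The median change over all genes was -0.02, and 21.3% of them were called up. Both lists were chosen with earlier results of these data known. The mean of the S phase list was 8.58 to 8.71 on the scramble arrays and 10.14 to 10.18 with HDAC5 shRNA. Relative to the median gene of the same array, it was 1.13 to 1.23 on these scramble arrays and 2.72 to 2.76 with HDAC5 shRNA. On the LSD1 scramble arrays it was 2.72 to 2.88. The rise with HDAC5 shRNA is thus relative to a scramble set that lay lower than the other one. What sets the scramble sets apart was not tested. The ACTB control probe sets, whose 3′ over 5′ log ratio grows as RNA degrades, gave 0.83 to 0.95 on scramble and 0.59 to 0.73 on HDAC5 shRNA arrays. The part of cell cycle or RNA quality in the change of the repair genes was not tested. Relative to the median gene of the same array, the mean of the 36 members was 1.00 to 1.11 with scramble and 1.57 to 1.63 with HDAC5 shRNA. In the LSD1 experiment it was 1.37 to 1.52 with scramble and 1.24 to 1.57 with LSD1 shRNA. The means of the members on single arrays were thus apart between scramble and shRNA in the first experiment and overlapped in the second. On the scramble arrays they were lower in the first experiment than in the second.

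As many members rose together, the bases before their starts were searched for an E2F-type motif, taken as TTCCCGC or TTGGCGC on either strand. The motif was chosen with earlier results of these data known, so its shares are descriptive only. RefSeq promoter windows of GRCh38.p14 matched 31 of the 36 measured members, and the 250 bases before each annotated start were read. A gene counted once if any of its starts held a match. Of 14 members that rose by at least 0.5 on the log2 scale, 9 held one (64.3%), as did 1 of 5 that rose by less, 4 of 9 that were not called and none of the 3 that fell. Among 9563 genes tested on the arrays that have a window, 14.2% held one, among all 35116 windows 7.81%, and among 27 genes of the S phase list 59.3%. A CCAAT box was found in 51.6% of the members and 42.4% of the genes tested, and the CHR-type letters TTTGAA in 9.68% and 13.9%. The CCAAT box read on the other strand, ATTGG, can share bases with TTGGCGC. A match describes the letters only, and 4 members with one (FANCC, FANCL, MSH3 and PMS1) were not called.

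The windows of the 5 members with the largest rise that have an entry, and of the 3 that fell, are shown to let the pattern be read directly. Each is 250 bases, 5′ to 3′ on the strand of the gene, ending at the base before the annotated start, with E2F-type matches in capitals. For genes with several starts the window with the most matches, or the first listed, is given.
EXO1, chr1:241847954-241848203, plus strand: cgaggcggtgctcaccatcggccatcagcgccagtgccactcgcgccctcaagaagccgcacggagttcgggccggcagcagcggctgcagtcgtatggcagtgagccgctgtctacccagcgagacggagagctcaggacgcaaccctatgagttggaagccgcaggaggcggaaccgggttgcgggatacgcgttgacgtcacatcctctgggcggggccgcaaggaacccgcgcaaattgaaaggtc
RAD54L, chr1:46247438-46247687, plus strand: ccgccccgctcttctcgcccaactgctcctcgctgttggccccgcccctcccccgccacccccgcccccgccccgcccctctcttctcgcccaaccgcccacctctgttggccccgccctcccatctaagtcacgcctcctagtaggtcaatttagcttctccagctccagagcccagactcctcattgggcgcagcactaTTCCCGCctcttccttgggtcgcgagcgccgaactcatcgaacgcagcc
BLM, chr15:90717096-90717345, plus strand: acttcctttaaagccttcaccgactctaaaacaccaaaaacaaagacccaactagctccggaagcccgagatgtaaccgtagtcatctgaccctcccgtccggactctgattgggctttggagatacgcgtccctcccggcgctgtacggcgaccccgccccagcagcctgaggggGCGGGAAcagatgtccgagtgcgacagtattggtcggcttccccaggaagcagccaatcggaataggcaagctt
CHEK1, chr11:125625979-125626228, plus strand: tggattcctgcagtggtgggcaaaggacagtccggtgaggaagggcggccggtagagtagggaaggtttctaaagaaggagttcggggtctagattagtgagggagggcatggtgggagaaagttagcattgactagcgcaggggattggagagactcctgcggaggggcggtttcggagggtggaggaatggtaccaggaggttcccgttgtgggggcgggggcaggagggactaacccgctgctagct
RAD51AP1, chr12:4538640-4538889, plus strand: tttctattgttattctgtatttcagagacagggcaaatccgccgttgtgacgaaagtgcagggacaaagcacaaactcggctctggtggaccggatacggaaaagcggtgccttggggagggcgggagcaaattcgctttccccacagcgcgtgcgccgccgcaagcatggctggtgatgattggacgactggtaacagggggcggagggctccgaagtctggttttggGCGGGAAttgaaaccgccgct
ATM, chr11:108222817-108223066, plus strand: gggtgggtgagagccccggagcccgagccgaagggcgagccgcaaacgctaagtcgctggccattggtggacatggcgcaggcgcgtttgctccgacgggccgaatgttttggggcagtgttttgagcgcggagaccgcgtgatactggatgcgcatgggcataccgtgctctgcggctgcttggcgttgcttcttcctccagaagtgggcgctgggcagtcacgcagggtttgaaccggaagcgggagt
RAD50, chr5:132556727-132556976, plus strand: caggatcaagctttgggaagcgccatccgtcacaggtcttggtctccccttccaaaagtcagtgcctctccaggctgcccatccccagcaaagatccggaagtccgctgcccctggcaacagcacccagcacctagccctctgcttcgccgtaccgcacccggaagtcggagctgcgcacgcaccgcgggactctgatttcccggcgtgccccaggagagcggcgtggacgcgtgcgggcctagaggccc
CHEK2, chr22:28741821-28742070, minus strand: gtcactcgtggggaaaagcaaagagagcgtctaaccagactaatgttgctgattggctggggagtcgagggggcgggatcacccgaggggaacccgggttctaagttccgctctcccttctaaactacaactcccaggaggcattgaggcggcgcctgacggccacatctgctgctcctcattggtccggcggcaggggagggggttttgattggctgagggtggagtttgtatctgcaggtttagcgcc
The matches of RAD54L, BLM and RAD51AP1 begin at positions -49, -74 and -21 from the start, where -1 is the last base before it. EXO1 and CHEK1, the first and the fourth of this set by their rise, hold no such match in any of their windows, nor do ATM, RAD50 and CHEK2. Among members not shown, the match of BRCA1 begins at -47, that of FANCG at -84, that of PARP1 at -18 and that of MSH6 at -191.

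**Figure D3:**
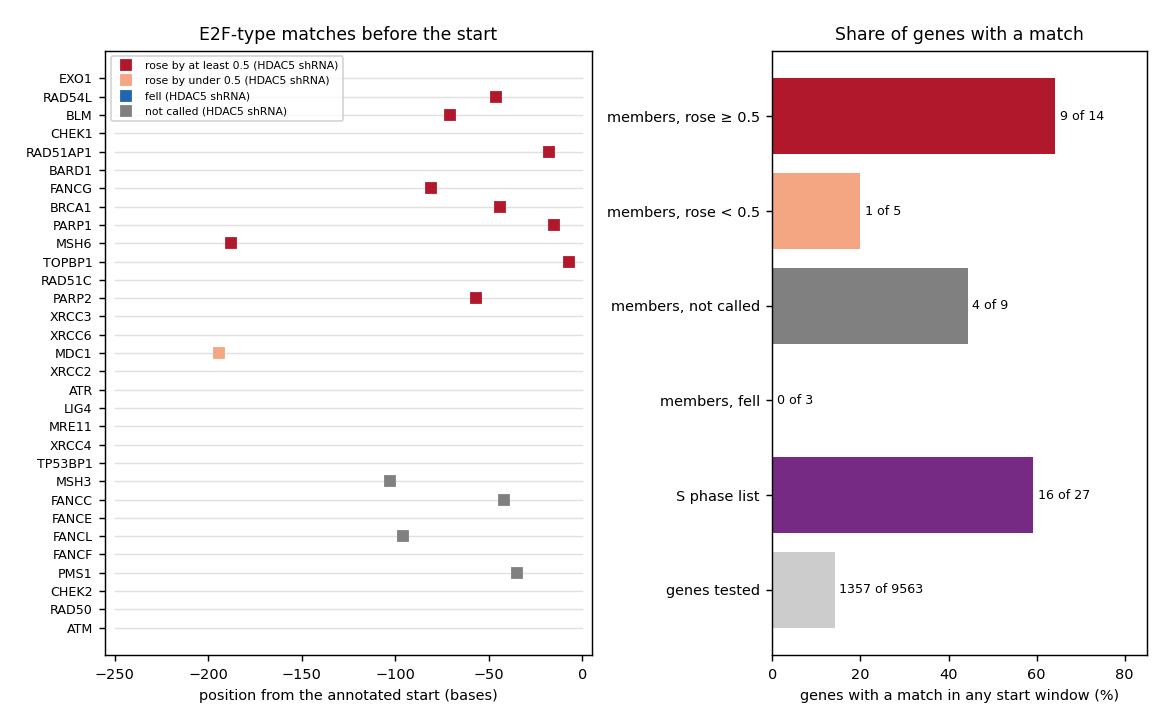
Left, position of E2F-type matches in the 250 bases before the start for the 31 members with a RefSeq window, ordered by their change with HDAC5 shRNA and coloured by their call; right, share of genes with a match in any window. Matches were found for 9 of 14 members that rose by at least 0.5, 0 of 3 that fell and 1357 of 9563 genes tested.

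With LSD1 shRNA few repair genes could be told from scramble. MRE11, NBN and XRCC5 rose, none fell and 33 of 36 did not pass. This is 8.33% of the members, against 4.92% of all genes (2.93% up and 2% down). The median change was 0.04 over the members and 0.01 over all genes. At an unadjusted p under 0.05 there were 10 members, and 22% of all genes. The groups did not overlap for 9 members with the shRNA arrays above and 2 with them below, against 14.3% and 12.7% of all genes.

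The 3 that rose encode end-binding proteins of either repair route. MRE11 had 8.89, 9.03 and 8.87 on the scramble arrays and 9.39, 9.54 and 9.40 with LSD1 shRNA (change 0.52, SE 0.10, adjusted p = 0.0325). NBN had 10.82, 10.74 and 10.88 on the scramble arrays and 11.33, 11.16 and 11.28 with LSD1 shRNA (change 0.44, SE 0.08, adjusted p = 0.0285), and XRCC5 had 12.60, 12.53 and 12.51 on the scramble arrays and 12.84, 12.78 and 12.88 with LSD1 shRNA (change 0.29, SE 0.05, adjusted p = 0.0245). In each the groups were apart. None of the 3 calls held in every alternative: NBN and MRE11 were lost without any 1 of the 5 arrays other than LSD1 shRNA 2 (adjusted p = 0.0736 to 0.156), and XRCC5 without any 1 of those arrays except scramble A (0.0818 to 0.13). The count of called members was 1 without scramble A and 0 without scramble B, scramble C, LSD1 shRNA 1 or LSD1 shRNA 3. The further probe set of MRE11 was dim (mean 3.15). The further probe sets of NBN gave 0.44, 0.57 and 0.46 and that of XRCC5 gave 0.17, and none of these passed. The other partners in the same complexes were at 0.07 (95% interval -0.25 to 0.39) for RAD50 and 0.02 (95% interval -0.08 to 0.13) for XRCC6.

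Several members kept the groups apart without passing. MSH6 had 11.43, 11.44 and 11.48 on the scramble arrays and 11.13, 10.63 and 11.15 with LSD1 shRNA (change -0.48, SE 0.14, adjusted p = 0.112), with all shRNA arrays below. A further probe set of MSH6, at -0.68, passed when all probe sets were tested (adjusted p = 0.0264). CHEK2 had 7.59, 7.69 and 7.62 with scramble against 7.92, 8.20 and 7.90 (change 0.37, SE 0.11, adjusted p = 0.104), with the shRNA arrays above. PARP1, MDC1, TP53BP1, ATR and FANCF also did, at 0.32 (SE 0.11), 0.34 (SE 0.10), 0.28 (SE 0.09), 0.27 (SE 0.10) and 0.62 (SE 0.23). FANCF was dim in this experiment, at 4.15, 4.27 and 4.13 with scramble against 4.38, 5.34 and 4.67. It lay below the lower quartile of each array (5.18 to 5.26) except LSD1 shRNA 2, where it was highest. The genes that led the rise with HDAC5 shRNA had wide intervals here: EXO1 was at 0.07 (95% interval -0.54 to 0.68), RAD54L at -0.40 (95% interval -1.01 to 0.20), FANCI at -0.08 (95% interval -0.53 to 0.36), BRCA1 at -0.22 (95% interval -0.70 to 0.27) and CHEK1 at -0.07 (95% interval -0.54 to 0.40). Each of these leaves out a change as large as the one with HDAC5 shRNA. Of the 87 other repair genes 2 fell, the recombination gene RAD51B (-1.05, SE 0.12) and PRKDC, the catalytic subunit of the kinase that Ku recruits (-0.38, SE 0.07), and none rose (median -0.06). These are 2.3% of the list, against 4.92% of all genes. At an unadjusted p under 0.05 there were 16 of the 87, against 22% of all genes. The limma adjusted p was 0.007 for RAD51B and 0.0388 for PRKDC. The count of called genes on this list was 1 when any 1 array other than LSD1 shRNA 2 was left out. It was 0 without scramble B and LSD1 shRNA 2 together.

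LSD1 shRNA array 2 stood apart from the other arrays of its group. EXO1 had 9.46, 9.39 and 9.24 on the scramble arrays and 9.75, 8.81 and 9.75 with LSD1 shRNA, with array 2 below all others. BRCA1 had 9.35, 9.07 and 9.21 with scramble against 9.26, 8.53 and 9.19. RAD54L had 8.32, 8.18 and 8.15 with scramble against 8.06, 7.19 and 8.18, and CHEK1 had 9.34, 9.26 and 9.34 with scramble against 9.52, 8.78 and 9.44. The second shRNA value is the lowest in each. All 16 members that had risen by at least 0.5 with HDAC5 shRNA were lowest on this array among the 3 LSD1 shRNA arrays, and 14 of them lay below every scramble array there. Over all genes this array was the lowest of the 3 for 43.9%. The share of all genes that lay below every scramble array there was not counted, so the 14 have no such share beside them. The 3 members that had fallen with HDAC5 shRNA, ATM, CHEK2 and RAD50, were highest on it, as were 36.2% of all genes. The median deviation of the 16 from the scramble mean was -0.53 on array 2, and 0.17 and 0.09 on arrays 1 and 3. S phase genes deviated alike, with medians of -0.67 on array 2 and -0.11 and -0.06 on the others, and G2 and mitosis genes with -0.66, -0.08 and -0.26; their part in the deviation was not tested. ACTB 3′ minus 5′ was 1.34 on array 2 and 1.38 and 1.56 on the others. Without array 2, 5 members were called: PARP1 at 0.44 (adjusted p = 0.0157) and MSH6 at -0.31 (0.0336) joined the other 3.

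**Figure D4:**
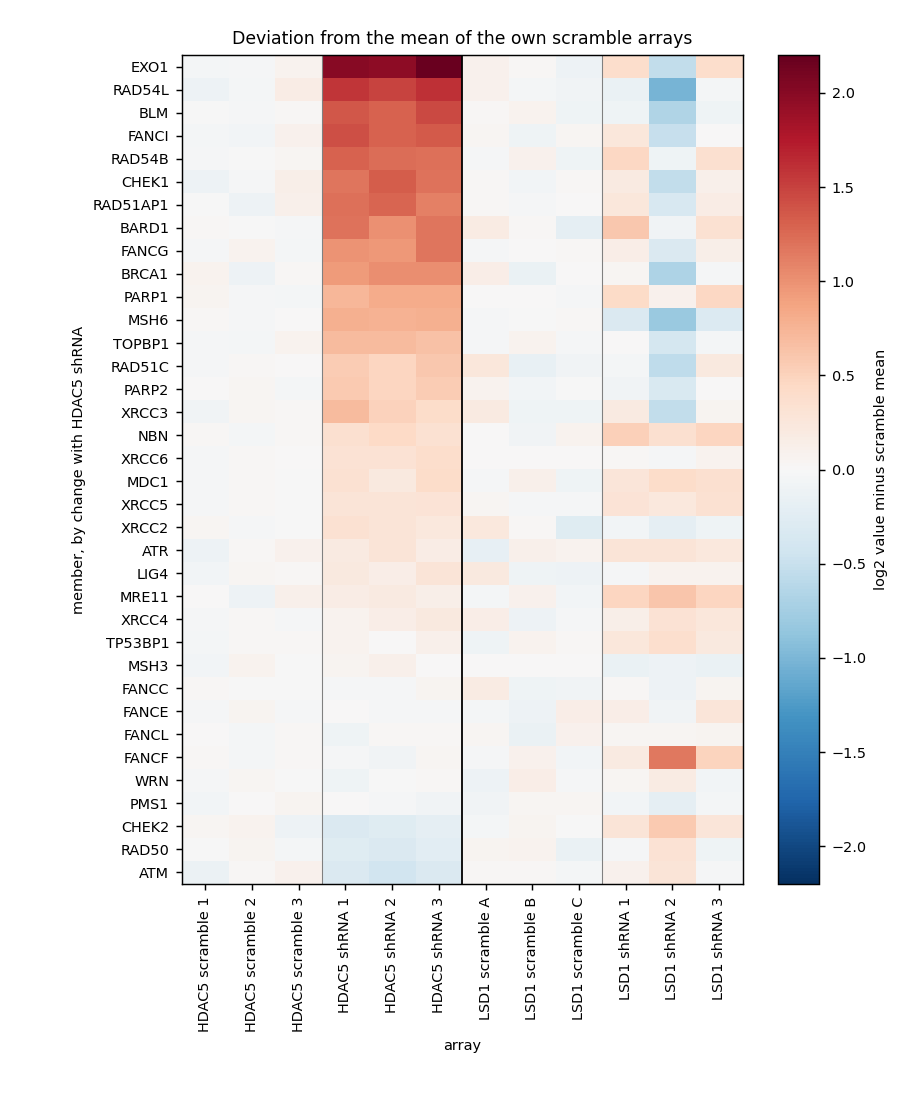
Log2 value of each member on each array minus the mean of the scramble arrays of the same experiment, as colour from -2.2 to 2.2, with members ordered by their change with HDAC5 shRNA. The 3 HDAC5 shRNA columns are alike, whereas in the LSD1 experiment the column of LSD1 shRNA 2 is blue for the upper 16 members, faintly so for BARD1 and RAD54B and not for PARP1, and red for CHEK2, RAD50 and ATM at the bottom.

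The difference between the 2 changes was tested directly in 1 fit of all 12 arrays, and the 2 comparisons have no array in common. It passed for 19 of 36 members, 16 with the higher change for HDAC5 shRNA and 3 with the lower, against 31.8% of all genes (15.7% and 16.1%). The largest differences in log2 change were those of EXO1 (1.98, SE 0.28, adjusted p = 0.000338), RAD54L (1.95, SE 0.28, adjusted p = 0.000373) and BLM (1.66, SE 0.19, adjusted p = 7.75e-05). The lower ones were CHEK2 (-0.63, SE 0.13, adjusted p = 0.00292), ATM (-0.47, SE 0.13, adjusted p = 0.0155) and MRE11 (-0.36, SE 0.11, adjusted p = 0.0308). The effector kinase genes lay on opposite sides of 0, with CHEK1 at 1.31 (SE 0.22). For NBN the difference was -0.07 (95% interval -0.26 to 0.13), and for XRCC5 it was 0.00 (95% interval -0.11 to 0.12). The calls for RAD51C and MRE11 were lost when single arrays were left out, RAD51C without any 1 of 8 arrays (adjusted p up to 0.0884) and MRE11 without any 1 of 7 (up to 0.0766). Relative to the median gene of the array, the mean of the members was 1.00 to 1.11 on the HDAC5 scramble arrays. On the LSD1 scramble arrays it was 1.37 to 1.52. A difference between the changes thus also rests on scramble sets that stood at unlike levels. The shRNA and the experiment cannot be told apart in it.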

How the data were processed

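The authors deposited log2 values, 1 per probe set and array, made with RMA in the affy package per the submitters' processing notes. The sources used here give no versions and do not state whether the 12 arrays were normalized in 1 run. Array lower quartiles were 4.59 to 4.65 in the HDAC5 experiment and 5.18 to 5.26 in the LSD1 experiment. The 12 arrays as deposited thus do not share 1 distribution. RMA equalises the distributions of arrays run together and compresses ratios at low signal. All 12 value columns were matched to samples. Of 22277 probe sets, 62 controls, 1043 with several symbols and 2108 with none were left out; the other 19064 were named through RefSeq GRCh38.p14 by gene ID (19052 matched). A gene's brightest probe set by its 12-array mean stood for it, with no filter on dim ones. Each shRNA was compared with its own scramble arrays in limma 3.58.1 (R 4.3.3; lmFit, eBayes with trend), with Benjamini-Hochberg adjustment over 11963 genes and a threshold of 0.05. SE and 95% intervals are limma's moderated ones. The fit was tested on simulated data. The number of arrays limits the precision.

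The members, the other repair list, the S phase and mitosis lists and the motifs were chosen with earlier results of these data known. Named genes were the called members changed by at least 0.5, every member called with LSD1 shRNA, central members of each pathway, and up to 3 called genes per role and direction of the other repair list. Alternatives covered the choice and type of probe set, dim probe sets, 1 fit of 12 arrays, quantile normalization, no trend, a replicate block, and leaving out arrays. Same-numbered HDAC5 arrays did not deviate together (correlations of -0.05, -0.21 and -0.15), so the numbers were not used as pairs.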

Additional observations from a re-analysis of the deposited data

Results flagged for a closer look

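For 19 members the change with HDAC5 shRNA differed from that with LSD1 shRNA in the fit of 12 arrays, by limma's contrast at an adjusted p under 0.05. The shRNA and the experiment, with its own scramble set, cannot be told apart in these differences. Among recombination genes the difference in log2 change was 1.98 for EXO1, 1.95 for RAD54L, 1.66 for BLM, 1.22 for BRCA1, 1.19 for RAD51AP1, 1.01 for RAD54B, 0.85 for BARD1, 0.68 for RAD51C and -0.36 for MRE11. It was 1.44 for FANCI and 1.06 for FANCG in the Fanconi pathway, 1.25 for MSH6 in mismatch repair, and 0.31 for XRCC6 in end joining. PARP1 was at 0.46 and PARP2 at 0.67. Of the checkpoint genes CHEK1 was at 1.31, TOPBP1 at 0.81, ATM at -0.47 and CHEK2 at -0.63.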

How the results depend on the processing

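With HDAC5 shRNA 21 of the 26 called members kept their call in every alternative run for them, and 17 of 19 did for the difference between the shRNAs; with LSD1 shRNA none of 3 did. The member count with HDAC5 shRNA was 25 to 27 without single arrays. Without _x_at and _s_at probe sets, which left 24 members and 8369 genes to test, the counts with HDAC5 shRNA were 17 members, 41 other repair genes and 3299 genes, with LSD1 shRNA 0 members and 334 genes, and 2284 genes differed. In 1 fit of 12 arrays they were 3512 genes with HDAC5 shRNA, and 10 members, 15 other repair genes and 2297 genes with LSD1 shRNA. With probe sets averaged per gene LSD1 shRNA gave 0 members and 1 other repair gene, and TP53BP1 with HDAC5 shRNA turned to -0.17 (adjusted p = 0.00986). Without scramble B and LSD1 shRNA 2 together, LSD1 shRNA gave 0 members, 0 other repair genes and 116 genes. Leaving out single arrays gave 0 to 5 members, 1 to 6 other repair genes and 104 to 786 genes. The replicate block gave 26 members, the same ones, and 4869 genes with HDAC5 shRNA. The spread between arrays limits the LSD1 comparison more: the median gene SD was 0.105 and 0.13 there, and 0.066 and 0.067 in the HDAC5 experiment.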
